A study of Xenopus tropicalis with 26 samples.

Results

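The change between stage 8 and stage 7 was measured in embryos of the frog Xenopus tropicalis that had been injected with an antisense morpholino oligonucleotide (MO) against E2f1. The step rests on 4 of the 26 libraries of the series, chosen by their labels: 2 of stage 8 E2f1 MO embryos and 2 of stage 7 E2f1 MO embryos. Whole embryos were sequenced as stranded, polyA-selected RNA. The step was set beside the same step in embryos given the E2f1 MO together with mRNA of an E2f1 mutant called deltaDBD, a name that points to a missing DNA-binding domain, and beside the step in wildtype embryos that received no treatment, with 2 libraries per group and stage. Wildtype embryos of stage 6 (2 libraries) were used to choose classes of genes. Embryos given Cdkn1a mRNA, the E2f1 MO with Cdkn1a mRNA, or the E2f1 MO with E2f1 mRNA enter the shared fit and the check by gene length. No control morpholino is among the groups used here, so the MO and the injection itself cannot be told apart. The labels do not say whether replicates came from separate clutches, so p-values measure only how far these libraries spread, and that spread may be technical.

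Early frog embryos divide on RNA and protein stored in the egg, with little transcription of their own. Around the mid-blastula the zygotic genome is switched on strongly and part of the stored RNA is removed, which together make up the maternal-to-zygotic transition. E2f1 is a transcription factor that binds DNA with a DP partner and is best known for regulating cell cycle genes under the control of the retinoblastoma family of pocket proteins. In this series the morphants already hold zygotic transcripts at stage 7, so their step asks what still changes after an early start.

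Between 14071614 and 19032710 fragments per library were assigned to genes, and between 14863227 and 18568027 in the 4 morphant libraries. Of 28778 genes, 12883 passed the count filter and were tested. The level of e2f1 itself (chromosome 10, 41691473 to 41704773 in the v10 build) was 417 and 376 CPM in stage 8 morphants, against 415 and 438 CPM in stage 7 morphants, where CPM are counts scaled to a common library size and composition. The cell cycle inhibitor gene cdkn1a had 4.57 and 6.09 CPM at stage 8 and 5.02 and 4.14 CPM at stage 7. A morpholino acts on translation or splicing, so the e2f1 level does not check the knockdown. In embryos that also received deltaDBD mRNA, e2f1 averaged 2052 CPM at stage 8 and 2113 CPM at stage 7. Markers of differentiated tissues were low, as 14 to 18 of the 28 in the table had no read in the 4 morphant libraries. Their summed level of 1130 and 1225 CPM at stage 8, against 1144 and 1139 CPM at stage 7, came almost wholly from epcam, krt18.1 and ptprc. In whole embryos, fewer cells of a type and less RNA per cell cannot be told apart, nor can a change in amount and a change in polyA capture.

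Stage 8 replicate 2 of the morphants stood apart from the other libraries by gene length. The log2 ratio of replicate 2 to replicate 1 at stage 8 fell by 0.124 per doubling of gene length, and its median was 0.17 in the shortest of 5 classes of gene length and -0.20 in the longest. In the 12 other groups this slope lay between -0.020 and 0.027. Over the 8767 genes averaging 10 CPM or more, the SD of the log2 ratio was 0.232 in the stage 8 morphants, against 0.0975 to 0.13 in those 12 groups. The tilt lay in 1 library: against the mean of the stage 7 morphants, replicate 2 had a slope of -0.13 and replicate 1 of -0.0064. Spearman's correlation of the ratio with length was -0.454 at stage 8 in morphants and between -0.081 and 0.203 in the other groups, as a description across genes that share a library. The main counts are therefore also given without this library, which leaves a single stage 8 morphant library that is assumed to vary like the other groups.

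**Figure D1:**
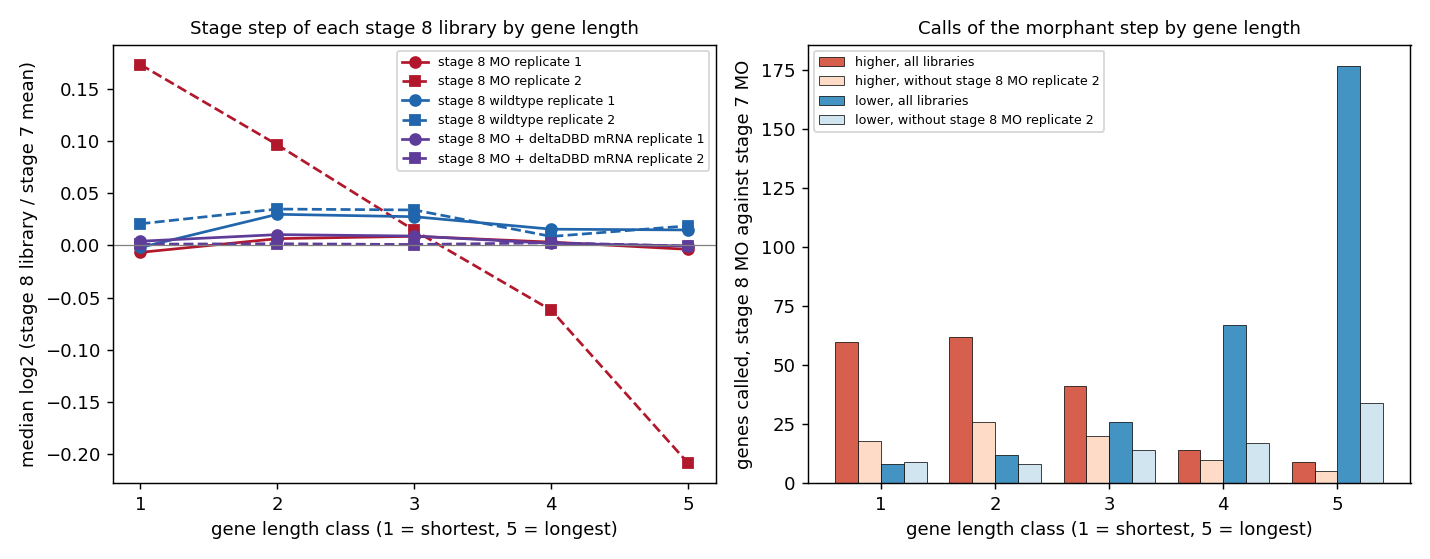
Left, median log2 ratio of each stage 8 library to the mean of its stage 7 group (y axis) over 5 classes of gene length from short to long (x axis), for E2f1 MO, wildtype and E2f1 MO + deltaDBD embryos. Right, number of genes called between stage 8 and stage 7 morphants by length class, with all libraries and without stage 8 MO replicate 2. In the longest class 177 genes fell with all libraries and 34 without that replicate.

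In morphants, 476 genes differed between stage 8 and stage 7, which is 3.69% of those tested (edgeR's quasi-likelihood test across all 26 libraries, adjusted by the Benjamini-Hochberg method, adjusted p under 0.05, as for all gene tests below). Of these, 186 were higher at stage 8 (1.44%) and 290 lower (2.25%), and 26 of the rises and 10 of the falls were at least 2-fold. The wildtype step gave 2461 higher genes (19.1%) and 2268 lower ones (17.6%), with 339 and 42 past 2-fold. These wildtype counts come from the fit with all libraries, so they do not match the counts below that leave a library out. Without stage 8 MO replicate 2, 161 genes were called in the morphant step (1.25%), 79 higher and 82 lower, and 76 of these rises and 54 of these falls were among the calls made with all libraries. Leaving out any of the other 3 libraries also moved the count: 138 genes were called without stage 7 MO replicate 1, 126 without stage 7 MO replicate 2, and 3470 without stage 8 MO replicate 1, where the length-tilted library stands alone at stage 8. These calls draw on the spread of all 26 libraries. With only the 4 morphant libraries in the fit, edgeR called 0 genes, while 748 had an unadjusted p under 0.05, and the Wald test of DESeq2 across all libraries called 145 higher and 317 lower. An exact permutation of 2 against 2 libraries cannot go below p = 0.333.

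The calls were spread unevenly over gene length. In the shortest class (68 to 1529 bases of counted exon) 60 rose and 8 fell in the morphant step, and in the longest class (4778 to 31193 bases) 9 rose and 177 fell. Without stage 8 MO replicate 2 the shortest class had 18 rises and 9 falls, and the longest 5 rises and 34 falls. The wildtype step had 314 rises and 416 falls in the shortest class, and 479 and 427 in the longest. The genes that rose in morphants had a median length of 1942.5 bases and those that fell 5438.5 bases, against 2708 bases for all tested genes. The part that library preparation had in this pattern was not tested.

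Most rises were shared with the wildtype step. Of the 186 genes that rose in morphants, 155 were also called higher in the wildtype step, which is 83.3% of the morphant rises and 6.3% of the wildtype rises, and 4 were called lower there. The median log2 fold change of the 186 was 0.56 in morphants and 0.98 in wildtype. These genes were chosen by the morphant step, which favours a larger step there. Among the 76 rises that held without stage 8 MO replicate 2, 74 were called higher in wildtype, and their median was 0.81 in morphants against 3.31 in wildtype.

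A class of rising genes, called the zygotic class here, was chosen from wildtype levels, not morphant ones. It held 1707 genes that were called and at least 2-fold higher at stage 8 than at stage 6. Of these, 1495 and 1510 had a read in the 2 stage 6 wildtype libraries, so most were already present before the rise. In the morphant step 126 of the 1707 rose and 1 fell, against 186 and 290 of all tested genes. The median of the class was 0.15, against 0.0033 for all tested genes. That median differed between the stage 8 libraries, at 0.067 for replicate 1 and 0.24 for replicate 2. Of this class 69 rose without stage 8 MO replicate 2, none was called lower and the median was 0.063. In the wildtype step, 1227 rose and 1 fell with a median of 0.48; this step shares the stage 8 wildtype libraries with the choice of the class. For the 466 genes past 4-fold the morphant median was 0.53, with 99 rises and no fall by edgeR. Most tested genes, 10877 of 12883, had no called change of at least 2-fold between stage 6 and stage 8 of wildtype. They held 60 of the 186 morphant rises and 245 of the 290 falls. Over all tested genes 1.44% rose and 2.25% fell, and the size of this group alone gives it a large part of any calls. Its median was -0.0087, and -0.0052 without stage 8 MO replicate 2.

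A narrower set held the 255 genes of this class with at most 3 reads over both stage 6 wildtype libraries, a cut chosen after values had been seen. Together they summed to 1111 and 1094 CPM in stage 8 morphants, against 650.5 and 632 CPM in stage 7 morphants. In stage 8 wildtype the sum was 1149 and 1120 CPM, against 95.5 and 94.9 CPM in stage 7 wildtype. Stage 7 morphants thus lay between the wildtype stages, and stage 8 morphants lay just under stage 8 wildtype. The stage 8 wildtype libraries also served to choose these genes, which favours a high sum there. Of all 12883 tested genes, 186 (1.44%) rose in the morphant step. Of the 255 genes 55 rose in that step and none was called lower, with a median of 0.73 (0.71 for replicate 1 and 0.67 for replicate 2). Without stage 8 MO replicate 2, 41 rose and the median was 0.74. In the wildtype step 213 of them rose and none was called lower, while 19.1% of all tested genes rose.

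**Figure D2:**
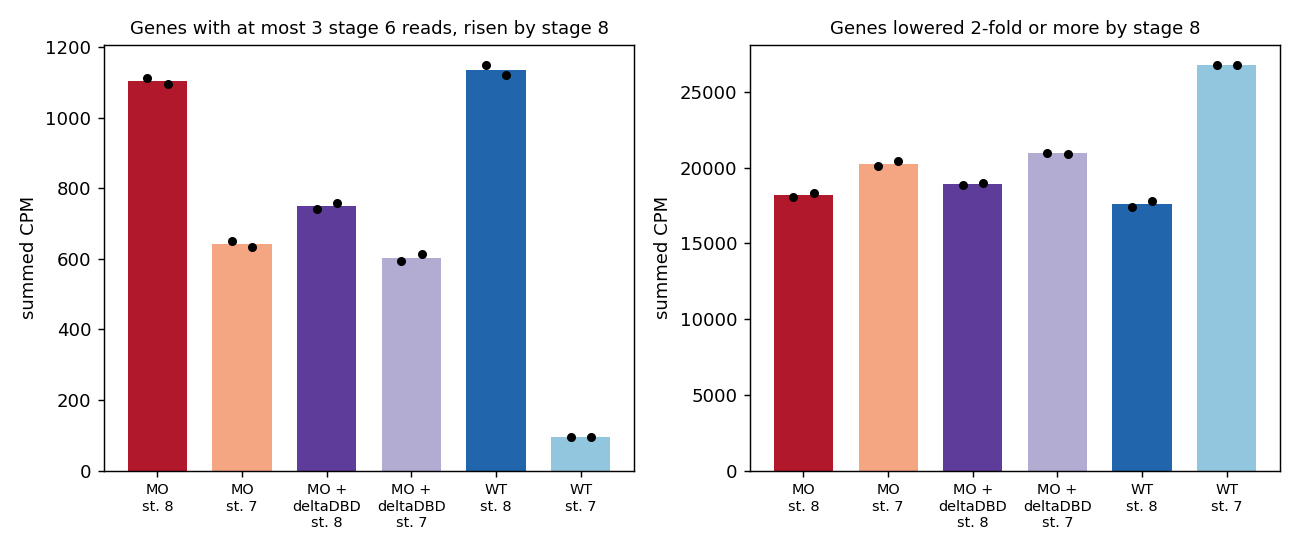
Summed CPM (y axis) of 255 genes with at most 3 stage 6 reads that rose by stage 8 in wildtype (left) and of 299 genes lowered 2-fold or more by stage 8 in wildtype (right), in each group (x axis). Bars are means of 2 libraries and points the libraries; stage 8 morphants reach 1111 and 1094 CPM on the left, against 741 and 759 CPM with deltaDBD mRNA.

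Nodal ligands and genes of the dorsal organizer, the region that patterns the body axis, gave the first such list. Of 21 tested, 6 rose and none was called lower in the morphant step, with a median log2 fold change of 0.75, against 19 rises and 1 fall and a median of 2.96 in the wildtype step. The 6 morphant rises are 28.6% of the list, beside 1.44% of all tested genes. In the wildtype step 19.1% of all tested genes rose. The homeobox gene not, a notochord and organizer gene (chromosome 1, 16941841 to 16943864), had 49 and 53.3 CPM in stage 8 morphants, against 34.4 and 32.1 CPM in stage 7 morphants (0.62 ± 0.081 SE, adjusted p = 6.5e-06). Stage 8 wildtype embryos had 50.3 and 51.5 CPM of not, and stage 7 wildtype embryos 10 and 11.1 CPM. Both stage 8 libraries were above both stage 7 libraries in each kind of embryo. In morphants this was so for 2481 of all tested genes (19.3%), so such a separation is common. admp, a BMP family ligand of the organizer, had 12.9 and 13.9 CPM at stage 8 and 8.18 and 7.75 CPM at stage 7 in morphants (0.75 ± 0.13, adjusted p = 0.00075). nodal3.1, a Nodal family ligand, had 13.6 and 14.1 CPM against 9.19 and 7.35 CPM (0.74 ± 0.15, adjusted p = 0.0024). nodal5, another ligand of that family, showed one of the largest rises, with 3.78 and 3.11 CPM at stage 8 against 1.6 and 1.05 CPM at stage 7 (1.36 ± 0.32, adjusted p = 0.013). In each of these genes both stage 8 libraries were above both stage 7 libraries, but without stage 7 MO replicate 2 the adjusted p was 0.16 for nodal5 and 0.096 for nodal3.1. The siamois genes, homeobox activators of the organizer, did not pass the test: sia1 had 7.74 and 7.04 CPM at stage 8 and 5.24 and 3.5 CPM at stage 7 (adjusted p = 0.052). chrd.1, which encodes the BMP antagonist chordin, was at 2.07 and 1.52 CPM against 1.18 and 0.35 CPM (adjusted p = 0.1). In this list 4 genes rose without stage 8 MO replicate 2.

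Ventral genes and targets of BMP signalling gave a similar count. Of 26 tested, 9 rose and none was called lower in morphants (median 0.75), against 21 rises and 2 falls in wildtype (median 3.72). The 9 morphant rises are 34.6% of the list, beside 1.44% of all tested genes. In the wildtype step 19.1% of all tested genes rose. klf17, a Krüppel-like zinc finger gene (chromosome 4, 91722837 to 91725856), had 78.2 and 78.5 CPM in stage 8 morphants, against 45.7 and 45.8 CPM in stage 7 morphants (0.78 ± 0.086, adjusted p = 5.9e-07). In wildtype it had 81.2 and 80.8 CPM at stage 8, against 10.2 and 12.1 CPM at stage 7. The ventral homeobox gene ventx2.2 had 33.6 and 36.7 CPM at stage 8 and 22.3 and 20.1 CPM at stage 7 in morphants (0.73 ± 0.10, adjusted p = 1.7e-05). id3, a BMP target that inhibits basic helix-loop-helix factors, had 40.3 and 45.8 CPM against 26.4 and 25.9 CPM (0.72 ± 0.097, adjusted p = 1.2e-05). bmp4, the ligand, had 12.6 and 11.8 CPM against 7.05 and 5.95 CPM (0.91 ± 0.17, adjusted p = 0.0017). Over all tested genes, 19.3% had both stage 8 morphant libraries above both stage 7 ones. For klf17, ventx2.2, id3 and bmp4 the groups did not overlap and the call held without stage 8 MO replicate 2, but bmp4 had adjusted p = 0.065 without stage 7 MO replicate 2. Of the 26 genes, 6 rose without stage 8 MO replicate 2.

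Mesendoderm regulators gave 8 rises of 22 (4 without stage 8 MO replicate 2) and no call lower (median 0.65), against 15 rises and 1 fall in wildtype (median 1.93). The 8 morphant rises are 36.4% of the list, beside 1.44% of all tested genes. In the wildtype step 19.1% of all tested genes rose. sox17a, an endoderm factor, had 5.97 and 6.85 CPM in stage 8 morphants against 3.1 and 2.33 CPM in stage 7 morphants (1.23 ± 0.22, adjusted p = 0.00087). eomes, a T-box factor, had 11.3 and 8.88 CPM against 5.66 and 5.83 CPM (0.82 ± 0.17, adjusted p = 0.0047). Without stage 7 MO replicate 2 the adjusted p was 0.053 for sox17a and for eomes, and without stage 7 MO replicate 1 it was 0.074 for eomes. wnt8a, a ventrolateral Wnt ligand, had 3.84 and 3.74 CPM against 1.76 and 1.69 CPM (1.13 ± 0.28, adjusted p = 0.017), but its step was 1.15 with adjusted p = 0.088 without stage 8 MO replicate 2. The stored T-box gene vegt, which encodes a vegetal activator of endoderm genes, had 447 and 429 CPM against 428 and 426 CPM and was not called; it was picked after its values were seen.

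Early neural and pluripotency genes were mixed. Of 21, 5 rose (2 without stage 8 MO replicate 2) and none was called lower, with a median of 0.24 (0.089 for stage 8 replicate 1 and 0.39 for replicate 2). The 5 rises are 23.8% of the list, beside 1.44% of all tested genes. sox2, a neural plate factor (chromosome 5, 108035485 to 108037707), had 17.8 and 18.7 CPM in stage 8 morphants, against 8.71 and 8.1 CPM in stage 7 morphants (1.11 ± 0.14, adjusted p = 2.3e-06). foxd4l1.1, a forkhead gene of the neural plate, had 9.08 and 9.32 CPM against 3.69 and 4.37 CPM (1.19 ± 0.20, adjusted p = 0.00031). The related sox3, which is stored in the egg, had 641 and 653 CPM against 644 and 626 CPM and was not called. pou5f3.3, a stored homologue of the pluripotency factor Oct4, had 797 and 780 CPM against 796 and 761 CPM and was not called either. Among 25 feedback genes of signalling pathways 5 rose (3 without stage 8 MO replicate 2) and none was called lower. One of them was dusp6, a phosphatase that acts on ERK, with 18.6 and 17.1 CPM at stage 8 against 9.19 and 9.21 CPM at stage 7 (0.96 ± 0.14, adjusted p = 4.8e-05). The rises are 20% of the feedback genes, beside 1.44% of all tested genes. The lists share members, so their counts are not separate results. Of the 25 feedback genes 7 are also in other lists, with id3 and lefty among the rises.

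**Figure D3:**
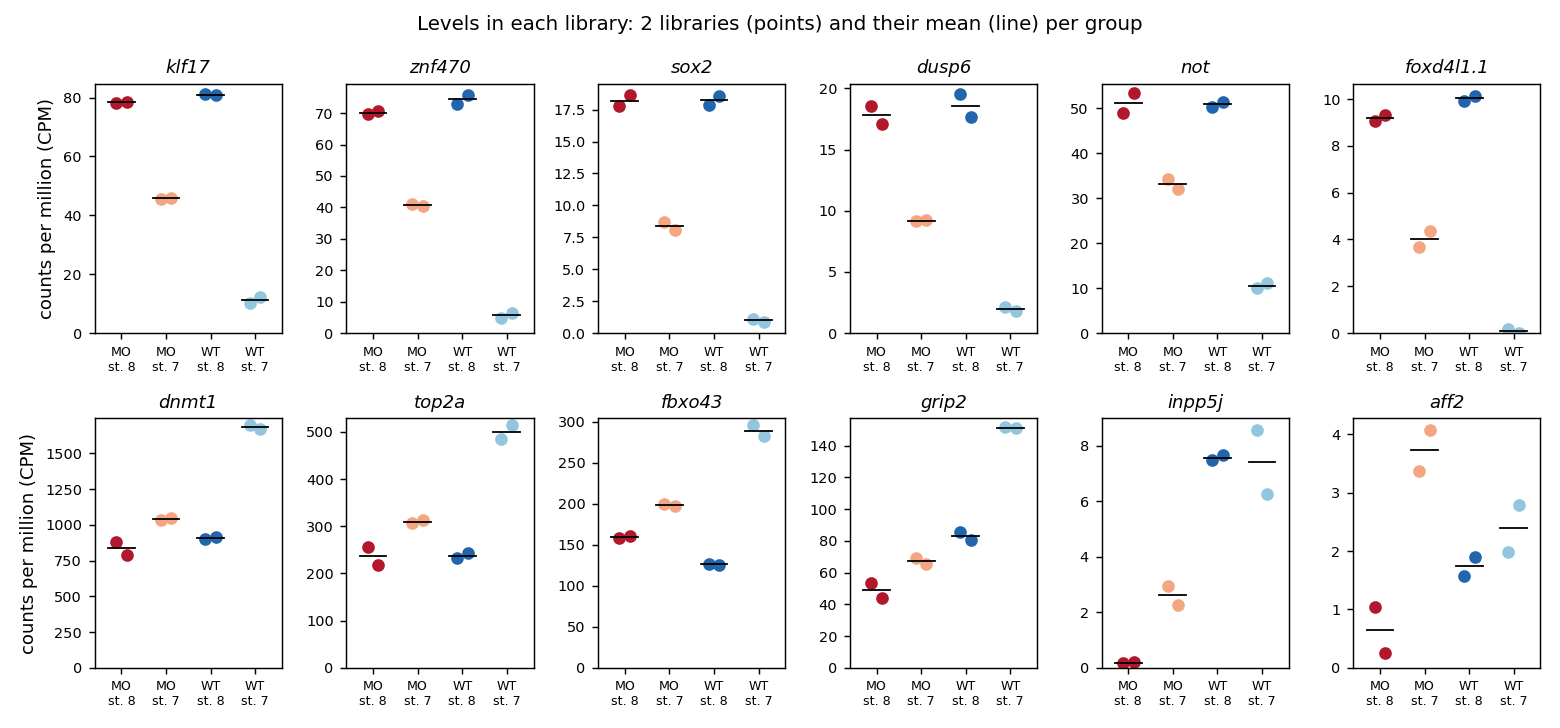
Level (CPM, y axis from 0) of 12 genes in stage 8 and stage 7 morphants and in stage 8 and stage 7 wildtype embryos (x axis), with 2 libraries as points and their mean as a line. Zygotic genes such as klf17 and sox2 stand at about the same level in both kinds of stage 8 embryo, while inpp5j is near 0 in stage 8 morphants alone.

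A span of zinc finger genes on chromosome 6 (2857519 to 3100953) was the list with the largest share of calls (83.3% rose, beside 1.44% of all tested genes). The span runs between the outermost of znf470, znf3, znf33a, znf33b and znf350. It was chosen with earlier results of these data known, so its rank among the lists is no separate test. All 18 of its genes were tested; 15 rose in the morphant step, both with all libraries and without stage 8 MO replicate 2. Their median was 0.81 in morphants, against 3.08 in wildtype, where all 18 rose, beside 19.1% of all tested genes. znf470 had 69.6 and 70.7 CPM in stage 8 morphants, against 41 and 40.3 CPM in stage 7 morphants (0.78 ± 0.078, adjusted p = 9.9e-08). znf350 had 42.3 and 46.3 CPM against 23.8 and 23.6 CPM (0.90 ± 0.088, adjusted p = 6.0e-08). In wildtype, znf470 had 72.9 and 75.8 CPM at stage 8 and 4.92 and 6.49 CPM at stage 7. The 3 genes of the span that did not pass, LOC101733897, LOC100337651 and LOC549508, had stage 8 levels of 3.84 to 7.1 CPM. Zinc finger genes of a span can be close copies of each other, so values of single genes are uncertain where their reads could be split.

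Some of the larger rises were of low genes. By fold, nodal5 was followed by ventx3.1, sox17a, foxd4l1.1, the Wnt receptor gene fzd8 and the homeobox gene irx2 (1.15 to 1.25 on the log2 scale). apoo, which encodes a protein of the mitochondrial inner membrane, had 2.5 and 3.49 CPM at stage 8 against 1.18 and 1.52 CPM at stage 7 (adjusted p = 0.034), while wildtype held 3.14 and 3.26 CPM at stage 8 and 3.32 and 2.97 CPM at stage 7. With stage 8 MO replicate 2 left out, the step was 1.38 for ventx3.1, 1.15 for fzd8, 1.06 for irx2, 1.01 for btg5.3 and 0.90 for apoo, and none of these 5 passed the edgeR test. Each of them also lost its call without stage 7 MO replicate 2. Among named genes with at most 3 counts over both stage 7 morphant libraries, only twist1, a mesoderm and neural crest factor (chromosome 6, 38448621 to 38450980), was called. It had 20 counts at stage 8 against 2 at stage 7, an 11.1-fold ratio with a 95% exact counting interval of 2.71 to 98.4 that covers counting error only. Its adjusted p was 0.049, and it was 0.19 to 0.26 when stage 8 MO replicate 2 or either stage 7 library was left out.

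Falls were smaller than rises. The median log2 fold change of the 290 genes that fell was -0.24 in morphants and -0.23 in wildtype. Of these, 190 were called lower in wildtype too, which is 65.5% of the morphant falls and 8.38% of the wildtype falls, and 3 were called higher there. For the falls that held without stage 8 MO replicate 2, the median was -0.29 in morphants and -0.51 in wildtype. The falls were chosen by the morphant step, which favours a larger step there. A class of 299 stored transcripts was called and at least 2-fold lower at stage 8 than at stage 6 of wildtype. Of these 299, 44 fell in morphants and none rose (median -0.14), beside 290 falls (2.25%) among all 12883 tested genes. This median was -0.14 for stage 8 replicate 1 and -0.13 for replicate 2, and 41 of the class fell without replicate 2. Its summed level was 18042 and 18351 CPM in stage 8 morphants, against 20091 and 20425 CPM in stage 7 morphants. The sum was 17399 and 17772 CPM in stage 8 wildtype and 26785 and 26754 CPM in stage 7 wildtype, so that both morphant stages lay nearer to stage 8 than to stage 7 wildtype. The stage 8 wildtype libraries also served to choose this class, which favours a low sum there.

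Several of the stored transcripts that fell encode cell cycle proteins. stil, which encodes a centriole duplication factor and was picked after its p was seen as the lowest of the step, had 189.8 and 189 CPM in stage 8 morphants, against 250.2 and 259.9 CPM in stage 7 morphants (-0.43 ± 0.037, adjusted p = 6.5e-09). In wildtype stil fell by 1.04 on the log2 scale. dnmt1, the maintenance DNA methyltransferase (chromosome 3, 137106110 to 137122282), had 879 and 790.2 CPM against 1031 and 1048 CPM in morphants (-0.32 ± 0.034, adjusted p = 2.0e-07). In wildtype dnmt1 had 900.5 and 913 CPM at stage 8 against 1699 and 1673 CPM at stage 7. top2a, topoisomerase II of mitotic chromosomes, had 255 and 218 CPM in stage 8 morphants against 308 and 312 CPM in stage 7 morphants (-0.39 ± 0.046, adjusted p = 1.4e-06). fbxo43, which keeps the anaphase-promoting complex inactive in eggs, had 158 and 160.2 CPM against 200.3 and 198 CPM (-0.32 ± 0.040, adjusted p = 3.3e-06). All of these held without stage 8 MO replicate 2. grip2, a germ plasm transcript, had 53.7 and 43.9 CPM against 69.2 and 65.1 CPM (-0.46 ± 0.066, adjusted p = 2.6e-05). clspn, whose product claspin acts in the replication checkpoint, had 529 and 470 CPM against 601 and 617 CPM (-0.29 ± 0.037, adjusted p = 4.6e-06). cdc25a, a phosphatase that activates cyclin-dependent kinases, had 899 and 818 CPM against 982 and 965 CPM (-0.18 ± 0.035, adjusted p = 0.002, and 0.054 without stage 7 MO replicate 1).

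Lists of mostly stored transcripts were counted in the same way. Some genes, such as fbxo43 and cdc25a, are members of several lists. Of 66 genes of mitosis and chromosome condensation, 6 fell and none was called higher in morphants, against 35 falls and 10 rises in wildtype. For the wildtype counts of these lists, 17.6% of all tested genes fell and 19.1% rose in the wildtype step. The 6 falls are 9.09% of the list, beside 2.25% of all tested genes, and without stage 8 MO replicate 2 the 10 falls are 15.2%, beside 0.636%. The list's median was -0.015 in morphants and -0.22 in wildtype. The morphant value turned to 0.030 without stage 8 MO replicate 1, which leaves the length-tilted library, and was -0.060 without stage 8 MO replicate 2. Of 76 genes of DNA replication and E2F targets 3 fell (3.95%) and 1 rose (1.32%) in morphants, and in wildtype 23 fell and 18 rose. Of 28 E2F, DP and pocket protein genes only rb1, the retinoblastoma gene, was called, with 182 and 154 CPM at stage 8 against 191 and 194 CPM at stage 7 (adjusted p = 0.022, and 0.58 without stage 8 MO replicate 2). Germ plasm and vegetally localized transcripts (for short, the germ plasm list) gave 3 falls and 1 rise of 27. Stored egg regulators gave 2 falls and 1 rise of 31, so that 11.1% and 6.45% of these lists fell. The falls numbered 1 in the germ plasm list and 2 among the egg regulators without stage 8 MO replicate 2. The single rise of the germ plasm list was gdf3, a TGF-beta family ligand. In morphants gdf3 had 23.6 and 20.4 CPM at stage 8 against 16.4 and 14.6 CPM at stage 7 (0.51, adjusted p = 0.022). Its step was 0.60 without stage 7 MO replicate 1 and 0.43 without stage 7 MO replicate 2, and the call was lost each time. In wildtype gdf3 averaged 21.1 CPM at stage 8 and 7.26 CPM at stage 7. None of 49 splicing and RNA binding factors was called by edgeR in morphants, while 39 fell and 2 rose in wildtype. cirbp, a cold-inducible RNA binding protein gene of that list, had 1181 and 1303 CPM at stage 8 against 1193 and 1113 CPM at stage 7. Factors of mRNA clearance gave 3 falls (6.52%) and 1 rise (2.17%) of 46, and the RNA polymerase II machinery 1 fall (1.49%) and 2 rises (2.99%) of 67. Histones and histone chaperones gave 1 of each of 32 (3.12%). Stress and apoptosis genes gave 2 rises of 37 (5.41%), and checkpoint and p53 genes 1 rise of 34 (2.94%), gadd45g. Of all tested genes, 2.25% fell and 1.44% rose. When stage 8 MO replicate 2 was left out, mRNA clearance and the polymerase II machinery had 1 fall each and no rise by edgeR, histones and p53 genes had no call, and 1 stress gene rose. Ribosome biogenesis genes (42 tested), markers of differentiated tissues (6 tested) and follicle and testis markers (4 tested) had no call by edgeR in the morphant step.

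Short genes of housekeeping complexes moved with stage 8 replicate 2. The 77 cytosolic ribosomal protein genes, with a median length of 618 bases, had a median step of 0.033 in replicate 1 and 0.31 in replicate 2. Of these 3 rose (rpl10a, rpl19 and rpl23a), and none was called by edgeR without replicate 2, when the median was 0.033. The 69 nuclear genes of oxidative phosphorylation had medians of 0.0050 and 0.33 in the 2 replicates, and 1 rose, atp5f1a. The 39 proteasome and CCT chaperonin genes had medians of 0.0083 and 0.20, and 1 rose, cct8. The rises are 3.9% of the ribosomal, 1.45% of the oxidative phosphorylation and 2.56% of the proteasome and CCT genes, beside 1.44% of all tested genes. Among called genes, the largest gains in CPM were of hspa8, actg1, oat, eef1a1o, tent5c and nap1l1, abundant transcripts with steps of 0.15 to 0.27. hspa8, a constitutive chaperone gene, had 828 and 906 CPM at stage 8 against 772 and 788 CPM at stage 7. All 6 lost their call without stage 8 MO replicate 2 (adjusted p from 0.13 to 0.52).

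**Figure D4:**
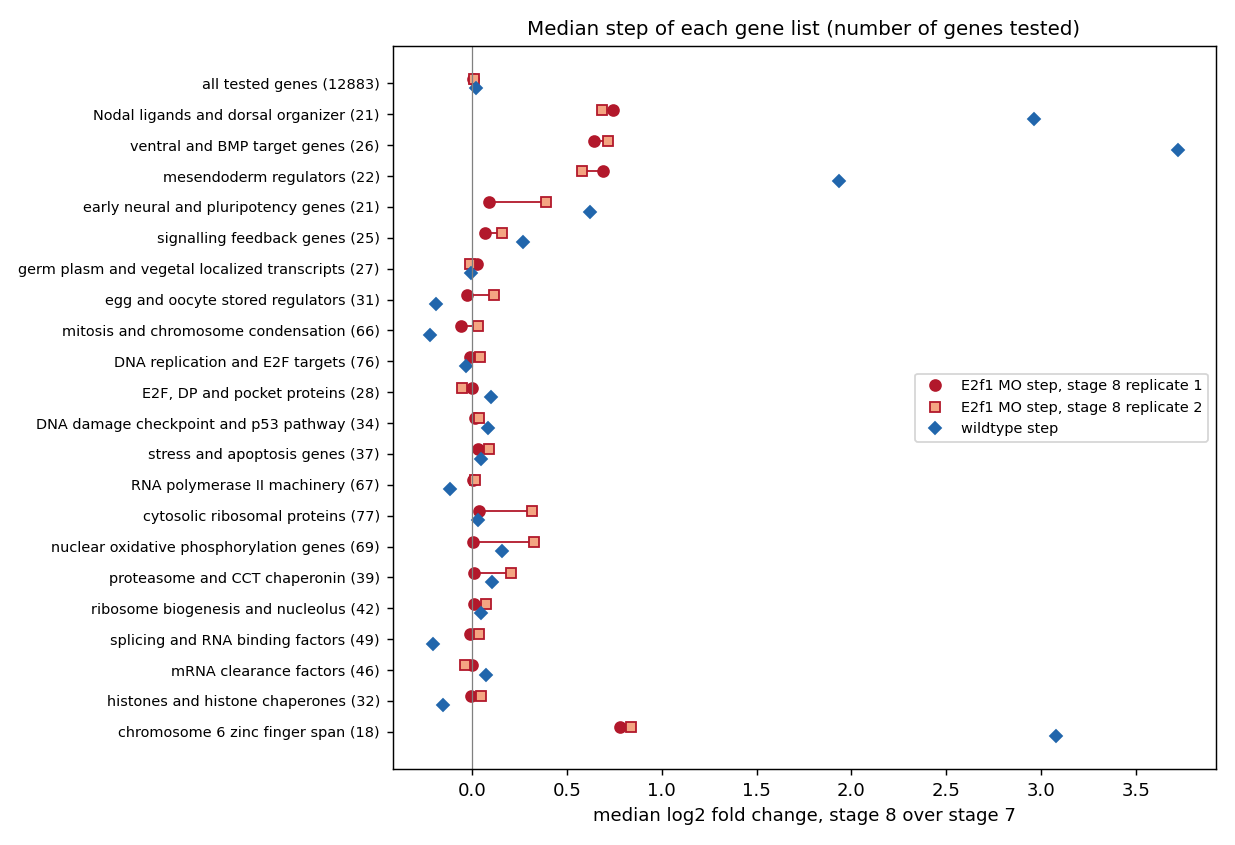
Median log2 fold change of stage 8 over stage 7 (x axis) for each gene list (y axis, with the number tested), for the morphant step by stage 8 replicate and for the wildtype step. The Nodal, ventral and mesendoderm lists and the chromosome 6 span lie between 0.58 and 0.84 in both morphant replicates, while ribosomal protein and oxidative phosphorylation genes lie near 0 in replicate 1 and above 0.3 in replicate 2.

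Of 10 named falls with the largest fold, inpp5j stood apart. This inositol polyphosphate 5-phosphatase gene (chromosome 1, 144059250 to 144072899) had 0.183 and 0.19 CPM in stage 8 morphants, against 2.94 and 2.27 CPM in stage 7 morphants (-3.76 ± 0.40, adjusted p = 2.0e-07, and -3.79 without stage 8 MO replicate 2). In wildtype it had 7.48 and 7.65 CPM at stage 8 and 8.56 and 6.25 CPM at stage 7. With deltaDBD mRNA it averaged 4.84 CPM at stage 8 and 8.92 CPM at stage 7. aff2, which encodes an AF4/FMR2 family protein (chromosome 8, 57084440 to 57417127), had 1.04 and 0.254 CPM in stage 8 morphants, against 3.37 and 4.08 CPM in stage 7 morphants (-2.50 ± 0.39, adjusted p = 8.8e-05). This long gene (14124 bases) was lower in stage 8 MO replicate 2, and its step was -1.84 without that library. With deltaDBD mRNA aff2 averaged 2.58 CPM at stage 8 and 0.776 CPM at stage 7. nfia, a nuclear factor I gene, had 0.609 and 0.761 CPM against 2.03 and 2.86 CPM in morphants (-1.82 ± 0.38, adjusted p = 0.0046, and 0.093 without stage 7 MO replicate 2). fam83c and iffo1 also fell with and without stage 8 MO replicate 2, but had adjusted p of 0.27 and 0.093 without stage 7 MO replicate 1. The other 5 named falls did not pass without stage 8 MO replicate 2 (adjusted p from 0.071 to 0.6). Of these, neurog1 had a step of -1.02 both with and without that library. ccdc187 had -0.69 without it against -1.29 with it, sema3f -0.80 against -1.20, il1rapl2 -0.94 against -1.18 and adgrg6 -0.70 against -0.90.

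The test of the difference between steps asked where morphants and wildtype moved unequally. It called 2080 genes, 953 with a more positive step in morphants (7.4%) and 1127 with a more negative one (8.75%). Without stage 8 MO replicate 2 it called 2737, 1366 positive and 1371 negative. The count was 3471 without stage 8 MO replicate 1, 1356 without stage 7 MO replicate 2, 1350 when stage 8 wildtype replicate 2 was left out and 1288 when stage 7 wildtype replicate 1 was. With an offset for gene length in every library the split was 2132 positive and 714 negative, and the wildtype step itself then had 1701 rises and 3738 falls. Of the 2461 wildtype rises 1025 had a significantly smaller step in morphants, and of the 2268 wildtype falls 899 did. The median step of these wildtype rises was 0.082 in morphants and 0.36 in wildtype, and that of the falls -0.047 and -0.23. These genes were chosen by the wildtype step, whose libraries also enter the difference, so the counts and medians describe the chosen genes and are no separate test. All 18 zinc finger genes of the chromosome 6 span had a smaller rise in morphants by this test. So did 14 of 21 Nodal and organizer genes, 15 of 26 ventral genes and 164 of the 255 genes with at most 3 stage 6 reads. On the other side, 34 of 49 splicing factors, 27 of 66 mitotic genes and 138 of the 299 lowered transcripts had a more positive step in morphants. The 255 and 299 genes were chosen with the same stage 8 wildtype libraries.

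The genes described at the negative end of the difference had no read in stage 7 wildtype, so no fitted fold is given for them. tfap2a, an epidermal and neural crest regulator, had 4.39 and 3.62 CPM in stage 8 morphants, 2.08 and 2.1 CPM in stage 7 morphants, 4.5 and 4.23 CPM in stage 8 wildtype and no read in stage 7 wildtype. The step of tfap2a in morphants alone had an adjusted p of 0.072. fst, which encodes the antagonist follistatin, tat, xmc and znf750 had no read in stage 7 wildtype either. At the positive end, cks2, a subunit of cyclin-dependent kinase complexes, had 33.3 and 50.2 CPM in stage 8 morphants against 41.3 and 45.9 CPM in stage 7 morphants. In wildtype cks2 had 35 and 40.4 CPM at stage 8 against 97.2 and 89.8 CPM at stage 7 (difference of steps 1.25 ± 0.19, adjusted p = 0.00045). The 2 stage 8 morphant libraries disagree on cks2, a short gene, and its morphant step was -0.39 with adjusted p = 0.036 without replicate 2.

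The same test was read over the morphant calls, which were chosen on libraries that also enter it. Among the 186 rises 92 were significantly smaller than in wildtype, 10 were larger and 84 were not called as different. Among the 290 falls 44 were smaller, 36 were larger and 210 were not called as different. The larger falls include inpp5j, aff2, fam83c, sema3f, il1rapl2 and adgrg6, and foxn3, a forkhead gene chosen after its values were seen. These counts come from the fit that holds the length-tilted library. With all libraries the difference was -1.51 for sema3f, -1.40 for il1rapl2 and -0.85 for adgrg6. Without stage 8 MO replicate 2 it was -1.11, -1.16 and -0.65. For inpp5j, aff2 and fam83c it was -3.78, -2.05 and -1.81 with all libraries, and -3.81, -1.39 and -2.27 without that replicate. foxn3 had 127 and 116 CPM in stage 8 morphants against 148 and 143 CPM in stage 7 morphants (-0.26 ± 0.047, adjusted p = 0.00079). In wildtype foxn3 had a step of 0.0086 with adjusted p = 0.91.

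In morphants that also received deltaDBD mRNA, 49 genes were called (0.38%), 29 higher and 20 lower at stage 8, and 11 to 15 when any of the 4 libraries of that step was left out. Without stage 8 MO replicate 2, which enters only the shared estimate of spread, 169 were called, against 161 in the morphant step. With only the 4 libraries of each step in the fit, 294 were called with deltaDBD mRNA and 0 in morphants without it, so the order of the counts depends on the fit. The 255 genes with at most 3 stage 6 reads summed to 741 and 759 CPM at stage 8 and to 592 and 614 CPM at stage 7 with deltaDBD mRNA. Both stage 8 sums lay below those of stage 8 morphants without it (1111 and 1094 CPM), while the stage 7 sums of those morphants were 650.5 and 632 CPM. Of the 186 genes that rose in morphants, 156 had a positive step with deltaDBD mRNA and 7 were called. Of all 12883 tested genes, 6532 had a positive step with deltaDBD mRNA. The median of the 186 was 0.56 in morphants and 0.13 with deltaDBD mRNA. Of the 290 that fell, 248 had a negative step with deltaDBD mRNA and 15 were called, with medians of -0.24 and -0.068. Both sets were chosen by the morphant step, which favours a larger step there. For the rises and falls that held without stage 8 MO replicate 2, the medians were 0.81 and -0.29 in morphants. With deltaDBD mRNA they were 0.27 and -0.13. klf17 averaged 52.8 CPM at stage 8 and 44.2 CPM at stage 7 with deltaDBD mRNA (adjusted p = 0.39). For znf470 the averages were 49.6 and 37.6 CPM (adjusted p = 0.015), and for fbxo43 174 and 219.7 CPM (adjusted p = 5.5e-06).

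Tested as a difference of steps, morphants and morphants with deltaDBD mRNA were told apart in 6 genes (0.0466%). The count was 2 without stage 7 MO replicate 1, 10 without stage 8 MO replicate 2 and 2097 without stage 8 MO replicate 1. sbk1l, an SH3-binding kinase-like gene of the early zygotic set, had 38.3 and 36.3 CPM in stage 8 morphants against 21.4 and 22 CPM in stage 7 morphants, and averaged 24.1 CPM at stage 8 and 23.1 CPM at stage 7 with deltaDBD mRNA (difference 0.72, adjusted p = 0.019). inpp5j, aff2, dab1, cttnbp2 and pgat had a more negative step in morphants. cttnbp2 had 62.3 and 58.4 CPM in stage 8 morphants against 57 and 57.8 CPM in stage 7 morphants, while with deltaDBD mRNA it averaged 83.4 CPM at stage 8 and 57.9 CPM at stage 7 (difference -0.45, adjusted p = 0.0042). With only the 8 libraries concerned in the fit edgeR called 0 genes, and 545 had an unadjusted p under 0.05. An unadjusted p under 0.05 was reached by 1177 genes with all libraries in the fit.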

How the data were processed

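Stranded, polyA-selected RNA of whole embryos was counted in 26 libraries, 2 in each of 13 groups. Groups, stages and replicate numbers came from the labels. Per the submitters' processing notes, fastp, STAR 2.7.0e, featureCounts 2.0.1 and deepTools were used; the sources used here give no order or settings for them. Per the file headers, the authors counted fragments per gene with the reverse-stranded setting, required both mates to map, left out chimeric pairs and used a v10 annotation. The deposited counts were analysed without rounding or scaling; coordinates and names are those of the file.

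Genes were kept by the default filterByExpr of edgeR 4.0.16 (R 4.3.3). Library sizes were scaled by trimmed means of M-values, and CPM use these sizes. A quasi-likelihood model was fitted to all libraries at once, with a mean for each of the 13 groups (robust, 13 residual degrees of freedom, biological coefficient of variation 3.93%), since the 4 morphant libraries alone leave little information on spread. It was 2.6% without stage 8 MO replicate 2. SE is the absolute log2 fold change over the square root of the F statistic. Floors (3 counts over a group) and intervals cover counting error only.

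Replicate numbers pair no samples by the labels. Over the 8767 genes averaging 10 CPM or more, deviations of same-numbered libraries of stage 8 and stage 7 morphants correlated at 0.21. This correlation ranged from -0.25 to 0.21 over all 78 pairs of groups.

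Named genes were e2f1 and cdkn1a, the 10 largest rises and 10 largest falls of the morphant step among called genes with a symbol, 2 CPM or more and no overlap between libraries, the 6 largest gains and losses in CPM, genes with at most 3 counts at stage 7, the 6 most positive and most negative differences of steps, up to 4 members of each list with the smallest p, and list members with a called difference of steps. stil, vegt and foxn3 were chosen after their values were seen. The list members bmp4, sia1, chrd.1, sox3 and pou5f3.3 were named for a called difference or after their values were seen. Not every list member with a called difference was named. Members and lists were chosen with earlier results of these data known. Alternatives were median-of-ratios size factors, no count filter, the Wald test of DESeq2 1.42.0, length offsets (loess, span 0.5), a replicate block, the compared groups alone and each library left out. The pipeline was tested on simulated data without a length tilt. It recovered 65.7% of 1.5-fold, 80.6% of 2-fold and 97% of 4-fold changes, and smaller changes were not simulated. No sequences are shown. Not every gene picked by the naming rule is reported here.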

Additional observations from a re-analysis of the deposited data

Results flagged for a closer look

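The step differed between morphants and wildtype in 2080 genes by the test of the difference itself (edgeR's quasi-likelihood test, Benjamini-Hochberg adjustment). Only the 6 most positive and 6 most negative named differences were screened here, for more than 3 counts in every group. The negative ones did not pass this screen. Named genes picked by other rules also had negative differences, such as -4.25 for sbk1l and -3.07 for sox2. These 2 are larger in size than the positive differences that passed. Among the genes that passed, the difference of steps, morphant minus wildtype on the log2 scale, was 1.45 for tbx6, 1.33 for lad1, 1.32 for tcp10l2, 1.28 for htr1e, 1.25 for cks2 and 1.2 for nxpe3l.6. These genes fell in wildtype and were not called in morphants. The difference of tbx6 had adjusted p = 0.051 in DESeq2, and that of tcp10l2 0.11, and both lost the call when any of several single libraries was left out. lad1 had adjusted p = 0.12 without stage 8 wildtype replicate 2. tcp10l2 had 1.77 and 1.21 CPM in stage 8 morphants, 1.28 and 1.4 CPM in stage 7 morphants, 0.975 and 1.25 CPM in stage 8 wildtype and 2.51 and 2.49 CPM in stage 7 wildtype.

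The step differed between morphants and morphants with deltaDBD mRNA in 6 genes, with differences of 0.72 for sbk1l, -4.23 for aff2, -2.88 for inpp5j, -0.73 for dab1, -0.45 for cttnbp2 and -0.40 for pgat. Of these, aff2 and cttnbp2 kept the call under each single library left out. The adjusted p of inpp5j was 0.054 when stage 7 E2f1 MO replicate 1 was left out, and sbk1l, dab1 and pgat lost the call without several single libraries. Groups of 2 libraries are too small to test for a sample far from the others.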

How the results depend on the processing

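Without stage 8 E2f1 MO replicate 1, whose absence leaves the length-tilted library alone at stage 8, the morphant step rose to 3470 calls, and the lowest count, 126, came without stage 7 E2f1 MO replicate 2 (rises 69 to 1406, falls 57 to 2064, list members 35 to 363 instead of 78). Leaving out single libraries gave 1288 to 3471 genes for the difference from wildtype, 11 to 15 for the deltaDBD step and 2 to 2097 for the difference from deltaDBD. Without the count filter the morphant step had 1180 calls (351 higher, 829 lower; 142 list members), the deltaDBD step 84 and its difference 207. With only the compared groups in the fit the morphant step had 0 calls, higher or lower, the difference from wildtype 496, the deltaDBD step 294 and its difference 0. An offset for length gave the deltaDBD step 93 calls (125 with a replicate block and length offset) and the difference 10 (11 with both). An offset for stage 8 E2f1 MO replicate 2 alone, chosen after seeing the data, gave 87 and 10, and 386 morphant calls, 298 of them among the 476. The replicate block gave 564 morphant calls (208 higher, 356 lower), 472 of them among the 476, and the numbers were treated as names only. The median of the zygotic class, 0.15, was 0.53 at the 4-fold threshold and 0.73 for genes with at most 3 stage 6 reads. The length slope was -0.146 for genes of 10 CPM or more, and as Spearman's correlation -0.454. No named gene changed sign among called steps under the alternatives run. The cause of these shifts was not tested. Depth limits low genes: a group with no read allows up to 3 counts.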
